A study of Mus musculus with 6 samples.

Results

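The genes described here are 10 genes of metal handling in the mouse liver, out of 54532 genes in the deposited table. They are the metallothionein genes Mt1 and Mt2, the zinc-sensing transcription factor gene Mtf1, the zinc and manganese importer genes Slc39a4, Slc39a8 and Slc39a14, the exporter genes Slc30a1 and Slc30a10, the copper pump gene Atp7b, and Cp, which encodes ceruloplasmin. They were chosen by gene symbol for their function, with earlier results of these data known. RNA-Seq was done on whole livers of C57BL/6 mice, with 1 library per mouse from 3 gSpns1-cKO and 3 control mice, to learn which pathways change when the lysosomal lysolipid transporter SPNS1 is lost. The gSpns1-cKO mice were Spns1 fl/fl mice with Rosa26Cre-ERT2, a Cre recombinase that tamoxifen activates in the whole body. They were injected with tamoxifen on 3 days in the second and the third weeks after birth to delete exon 3. The control mice are called WT in the labels, whereas the methods describe Spns1 fl/fl littermates without Cre, and whether they received tamoxifen is not given in the sources used here. The age at harvest and the sex are not given for these animals either. All 6 libraries held between 1731 and 2568 counts of the Y-linked gene Ddx3y and at most 5 counts of Xist, so the groups did not differ in these marks of sex. Because Cre acted in the whole body, differences in the liver cannot be told apart from effects of the loss of Spns1 in other organs. Per the methods only the gSpns1-cKO mice carried Cre, so effects of active Cre itself cannot be told apart either.

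Metallothioneins are small, cysteine-rich proteins that bind zinc and copper and buffer the free metal in the cell. When cytosolic zinc rises, the transcription factor MTF1 binds short metal response elements in the promoters of its targets, which include the metallothionein genes and Slc30a1, and switches them on. Glucocorticoids and inflammatory cytokines also induce metallothioneins and the importer ZIP14 (Slc39a14) in hepatocytes, and during the acute phase response zinc moves from the blood into the liver. Copper is pumped by ATP7B into the secretory pathway, where it is loaded onto ceruloplasmin, and into bile.

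The sequences of the metallothionein promoters show where letters of the metal response element occur near the starts annotated in RefSeq. Mt1 lies at chr8:94179082-94180327 and Mt2 at chr8:94172664-94173568 on the plus strand of GRCm38, with 5513 bases between them. The promoter windows below come from RefSeq (GRCm38.p6) and run from 250 bases before the annotated start site to 30 bases after it, chr8:94178839-94179118 for Mt1 and chr8:94172368-94172647 for Mt2. Capitals mark matches to the 7-letter core of the metal response element, TGCACNC or TGCGCNC, on either strand, with overlapping matches merged.
Mt1: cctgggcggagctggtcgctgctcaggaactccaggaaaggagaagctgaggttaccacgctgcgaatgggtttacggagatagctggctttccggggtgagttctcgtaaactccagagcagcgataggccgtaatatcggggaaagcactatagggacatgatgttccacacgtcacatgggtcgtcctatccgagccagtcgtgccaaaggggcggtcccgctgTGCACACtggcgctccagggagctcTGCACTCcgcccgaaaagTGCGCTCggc
Mt2: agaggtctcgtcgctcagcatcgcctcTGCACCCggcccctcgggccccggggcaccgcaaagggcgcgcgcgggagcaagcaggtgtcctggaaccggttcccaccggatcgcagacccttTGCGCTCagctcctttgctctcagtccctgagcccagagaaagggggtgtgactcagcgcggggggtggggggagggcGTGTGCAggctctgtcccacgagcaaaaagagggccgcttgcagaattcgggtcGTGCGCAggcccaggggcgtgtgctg
Mt1 held 3 such matches and Mt2 held 4 in the windows of 300 bases. Of 32851 mouse promoter windows of that length, 25.7% held at least 1 match, 1.23% held at least 3 and 0.265% held at least 4. Windows were found for 8 of the 10 genes, those without one being Slc39a4 and Slc39a14. Slc30a1 and Slc30a10 held 2 matches each, as did or exceeded 6.01% of all windows, Atp7b held 1, Slc39a8 held 1 in 1 of its 2 windows, and Cp and Mtf1 held none. A match is a run of letters and not a tested binding site. The windows of Mt1 and Mt2 end before the first coding bases, at chr8:94179311 and chr8:94172848, and the bases between were not searched. The printed Mt2 window also ends before the start of Mt2 given above, so matches nearer to the genes can be missing.

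The coding sequences show how much the metallothionein genes resemble each other, which matters for how reads are assigned to them. They were read from the GENCODE M21 transcripts Mt1-201 and Mt2-201, and capitals mark the codons TGC and TGT, which code for cysteine.
Mt1: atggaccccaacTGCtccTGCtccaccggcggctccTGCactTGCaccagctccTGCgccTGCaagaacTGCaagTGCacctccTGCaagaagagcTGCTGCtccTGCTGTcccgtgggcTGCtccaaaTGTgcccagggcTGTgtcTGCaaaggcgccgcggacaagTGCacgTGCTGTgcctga
Mt2: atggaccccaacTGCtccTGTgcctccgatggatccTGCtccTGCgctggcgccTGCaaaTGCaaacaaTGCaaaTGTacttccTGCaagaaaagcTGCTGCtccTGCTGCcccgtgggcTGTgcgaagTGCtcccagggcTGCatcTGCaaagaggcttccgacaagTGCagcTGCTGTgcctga
Both coding sequences were 186 bases long with the stop codon, and each held 20 cysteine codons among 61. They were identical at 148 aligned positions (79.6%), and the longest identical run was 20 bases, so any stretch of coding sequence longer than that differs between the genes.

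The libraries held between 30350002 and 35295611 counts. Levels are given as CPM, which are counts divided by a TMM-scaled library size, and TMM assumes that most genes do not change. TMM gave factors of 0.834 to 0.873 for the control libraries and 1.16 to 1.18 for the gSpns1-cKO libraries, so the choice of scaling matters for small differences. Over all genes tested, the median log2 fold change was 0.01 with TMM and 0.46 when libraries were scaled by their size only. Spns1 itself had 35.9, 50.7 and 34.6 CPM in the control livers and 17.8, 30.6 and 17.8 CPM in the gSpns1-cKO livers, without overlap. Its log2 fold change was -0.87 ± 0.25 (SE; edgeR's quasi-likelihood test, adjusted p = 0.0300), and its count covers all exons, of which exon 3 is the deleted one.

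With edgeR's quasi-likelihood test and Benjamini-Hochberg adjustment over 15449 genes, 3 of the 10 metal-handling genes passed an adjusted p of 0.05. Slc39a4 and Atp7b were higher in gSpns1-cKO livers, Slc30a1 was lower, and the other 7 did not pass. This share of 30% stands beside 41.8% of all genes tested that passed the same test, 21.3% higher and 20.5% lower. The median log2 fold change of the 10 genes was 0.15, beside 0.01 for all genes. The groups did not overlap for 5 genes, Slc39a4, Slc39a8, Mtf1 and Atp7b being higher in every gSpns1-cKO library and Slc30a1 lower, beside 54.1% of all genes (27.1% higher and 26.9% lower). With library size only, 6 of the 10 passed, all higher (Mtf1, Slc39a4, Slc39a8, Slc39a14, Atp7b and Cp), where 53.5% of all genes passed, 47.2% higher and 6.28% lower. The share called was thus below that of all genes with TMM and somewhat above it with library size only, and the results below concern single genes.

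**Figure D1:**
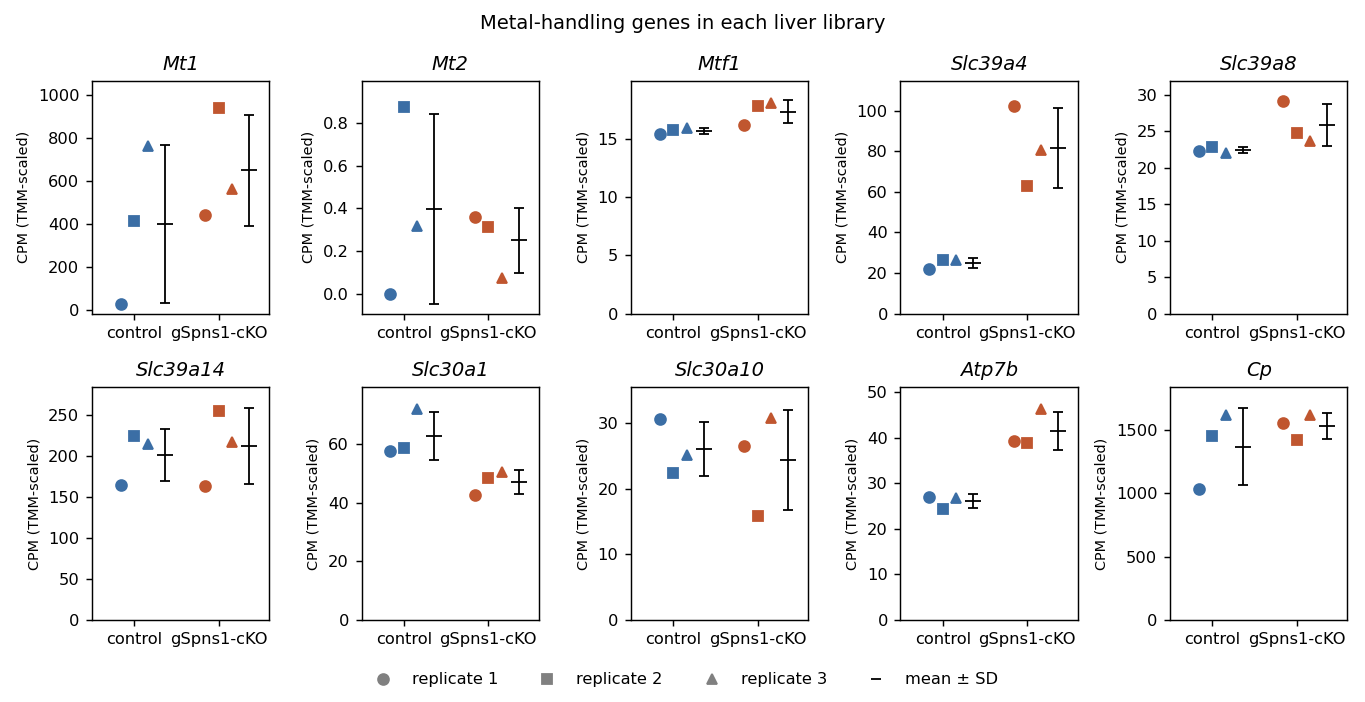
TMM-scaled CPM (linear axes) of the 10 metal-handling genes in each liver library, with control in blue, gSpns1-cKO in orange, one marker shape per replicate number and the mean ± SD (n = 3) in black. Slc39a4 and Atp7b sit higher in all gSpns1-cKO libraries, Slc30a1 sits lower, and Mt1 in control replicate 1 lies near the foot of its panel at 26.5 CPM.

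Mt1, the main metallothionein counted in these livers, varied more between the control mice than between the groups. It had 745, 12739 and 19289 counts in control replicates 1, 2 and 3 and 15886, 36142 and 22199 counts in the gSpns1-cKO replicates. On the CPM scale this was 26.5, 414 and 762 in control livers and 442, 942 and 565 in gSpns1-cKO livers. Control replicate 1 stood far under the other 5 libraries, and without it the groups still overlapped. The highest control level was 28.8-fold the lowest, whereas the highest gSpns1-cKO level was 2.13-fold the lowest. The means were 401 ± 368 and 649 ± 261 CPM (SD, n = 3). The log2 fold change was 0.70 ± 1.19 (SE; edgeR, adjusted p = 0.685), and it was 0.13 without control replicate 1 (edgeR, adjusted p = 0.826). With a standard error of this size, a change of several-fold was not detectable for Mt1. The log2 fold changes from leaving out each library in turn ranged from 0.13 to 1.54.

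Together Mt1 and Mt2 took 0.00229%, 0.0362% and 0.0636% of all counts in the control livers. In the gSpns1-cKO livers they took 0.0511%, 0.111% and 0.0657%. Mt2 added at most 7.65e-05% of counts, in control replicate 2, so this share is almost that of Mt1 alone. The counts of Mt2 have a limit that is given below. The means were 0.0340 ± 0.0307% and 0.0759 ± 0.0311% (SD, n = 3), a difference that did not pass an exact two-sided permutation test (p = 0.2, where 3 mice against 3 cannot go below 0.1). With TMM-scaled library sizes in the denominator the difference was 0.0248 percentage points instead of 0.0419 (exact permutation p = 0.4).

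Control replicate 1 was the library with the lowest Mt1 level. In it, 19 of 20 acute phase genes were also at their lowest of the 3 control libraries, the exception being Hamp. The same count over all genes is not given here, so how unusual this is cannot be told. Saa1, which encodes the acute phase protein serum amyloid A, had 66.3 CPM in control replicate 1 and 3535 and 5462 CPM in control replicates 2 and 3. Lcn2, which encodes the iron-binding acute phase protein lipocalin-2, had 5.34 CPM in that library and 167 and 469 CPM in the other control libraries. In the gSpns1-cKO livers, Saa1 had 165, 19.0 and 44.2 CPM while Mt1 had 442 to 942 CPM. Thus Mt1 and Saa1 were ordered alike in the control libraries, whereas in gSpns1-cKO livers Mt1 was high in libraries with low Saa1. Saa1 and Lcn2 were singled out after their values were seen. Of 20 acute phase genes none rose and 7 fell in gSpns1-cKO livers (35% called, beside 41.8% of all genes), among them Saa3 (log2 fold change -2.83 ± 0.58), Hp (-1.71 ± 0.53) and Orm1 (-1.27 ± 0.40). The summed level of the 20 genes was 26565 CPM in control replicate 1, 64704 and 69190 CPM in the other control livers, and 26261 to 28719 CPM in gSpns1-cKO livers. The calls of Hp and Orm1 were each lost in 10 of 14 other settings, and their values in control replicate 1 overlapped those of gSpns1-cKO livers. That of Saa3 was lost in 4. With library size only 1 of the 20 rose and 1 fell, beside 47.2% and 6.28% of all genes. The part of the acute phase genes in the Mt1 levels was not tested.

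**Figure D2:**
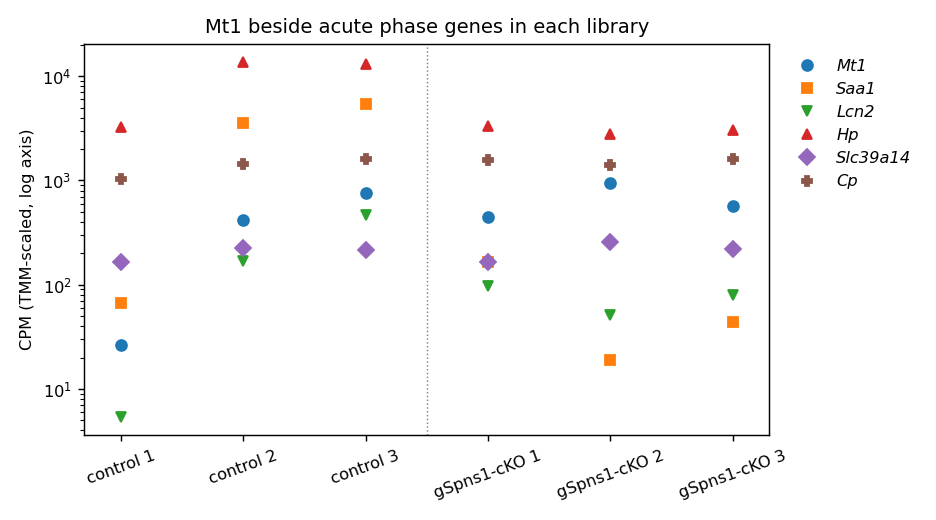
TMM-scaled CPM (log axis) of Mt1, of the members Slc39a14 and Cp, and of the acute phase genes Saa1, Lcn2 and Hp in each of the 6 liver libraries, 1 point per library. Mt1, Saa1 and Lcn2 are all low in control replicate 1, where Mt1 had 26.5 CPM, while in the gSpns1-cKO libraries Mt1 is above Saa1.

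Genes induced by glucocorticoid, which also induces metallothioneins, did not share a direction. Of 7 such genes, Sgk1, a serum- and glucocorticoid-regulated kinase gene, rose (log2 fold change 1.39 ± 0.18), and Tsc22d3 (-0.65 ± 0.17) and Tat (-0.55 ± 0.18), a tyrosine-degrading enzyme gene, fell. The other 4 did not pass, so that 42.9% were called beside 41.8% of all genes. The call of Tat was lost in 5 of 14 other settings and that of Tsc22d3 in 3. With library size only Sgk1 alone of the 7 passed, where 53.5% of all genes did. The median of the list was -0.05, beside 0.01 for all genes. The part of glucocorticoid in the Mt1 levels was not tested.

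Mt2 had few counts, and these cannot be read as the level of its transcript. It had 0, 27 and 8 counts in the control libraries and 13, 12 and 3 in the gSpns1-cKO libraries, and the groups overlapped. Its log2 fold change was -0.70 ± 0.99 (SE; edgeR, adjusted p = 0.607), and the sign turned to 0.30 with limma-voom and to 0.68 without control replicate 2. In the annotation, 432 of the 588 exonic bases of Mt2 (73.5%) also lie in the single exon of Gm45774, a gene on the opposite strand at chr8:94170748-94173412. Exon 1 of Mt2-201 (212 bases) and exon 2 (66 bases) lie wholly inside it, as do 77 of the 233 bases of exon 3, and 156 exonic bases of Mt2 are free of it. Gm45774 had 3, 15 and 12 counts in the control libraries and 37, 26 and 43 in the gSpns1-cKO libraries. If counting ignored strand, reads in the shared bases would be ambiguous between these genes, and the strand setting is not given in the sources used here. Of the remaining metallothionein genes, Mt3 had at most 3 counts in any library and Mt4 had 0 in all 6.

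**Figure D3:**
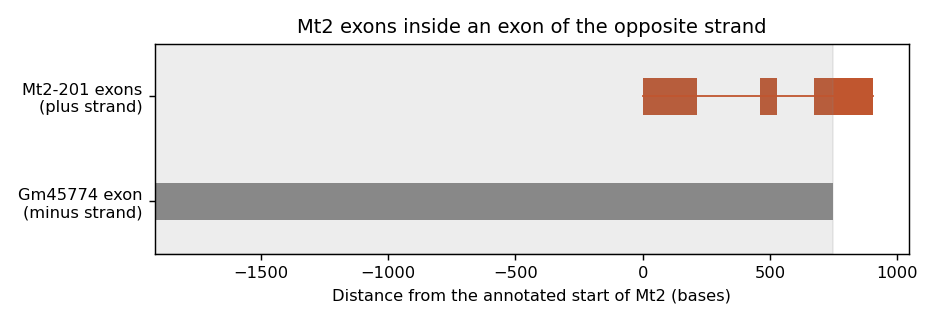
Map of the 3 exons of Mt2-201 on the plus strand (orange) and the exon of Gm45774 on the minus strand (grey), drawn to scale in bases from the annotated start of Mt2. The shaded span is the part inside the Gm45774 exon, which covers exons 1 and 2 and 77 bases of exon 3.

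Mtf1 (chr4:124802104-124849800, plus strand), the gene of the zinc sensor itself, varied little between libraries. It had 15.4, 15.7 and 15.96 CPM in control livers and 16.2, 17.8 and 18.1 CPM in gSpns1-cKO livers. The gSpns1-cKO values were all above the control values, by a small margin. The log2 fold change was 0.14 ± 0.11 (SE; edgeR, adjusted p = 0.326), and with library size only it was 0.59 and passed (adjusted p = 0.00162), which is near the median of 0.46 of all genes at that scaling. Of its 8907 exonic bases, 721 are shared with 1110065P20Rik on the opposite strand. Of 5 further genes reported to respond to MTF1, Csrp1, which encodes a LIM-domain protein, rose from 10.3 ± 1.56 to 47.5 ± 6.25 CPM (log2 fold change 2.21 ± 0.15, adjusted p = 6.41e-06 in edgeR). Ndrg1 rose by 0.58 ± 0.19 on the log2 scale (edgeR, adjusted p = 0.0305) and lost this when any of 4 libraries was left out. Gclc, Selenoh and Selenow did not pass, so that 40% of these 5 genes were called, near the 41.8% of all genes.

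Slc39a4 was the metal-handling gene with the largest change that passed the test. It encodes ZIP4, the zinc importer whose loss in people causes acrodermatitis enteropathica through failed zinc uptake in the gut. The gene lies on the minus strand at chr15:76612383-76617384. Slc39a4 was counted 618, 813 and 670 times in control replicates 1, 2 and 3 and 3673, 2408 and 3162 times in the gSpns1-cKO replicates. On the CPM scale this was 22.0, 26.4 and 26.5 in control and 102, 62.8 and 80.4 in gSpns1-cKO livers, and the lowest gSpns1-cKO value was above the highest control value. The means were 25.0 ± 2.57 and 81.8 ± 19.7 CPM (SD, n = 3), a 3.28-fold rise with a log2 fold change of 1.71 ± 0.17 (SE; edgeR, adjusted p = 8.50e-05). It passed in each of 14 other settings, with log2 fold changes of 1.52 to 1.87 when a library was left out and 2.15 with library size only. None of its exonic bases are shared with another annotated gene.

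The other importers of the set did not pass with TMM. Slc39a8 (chr3:135825279-135888572, plus strand) encodes ZIP8, which carries zinc and manganese. It had 22.3, 22.9 and 22.0 CPM in control livers and 29.2, 24.7 and 23.7 CPM in gSpns1-cKO livers, which did not overlap. Its log2 fold change of 0.21 ± 0.11 did not pass (SE; edgeR, adjusted p = 0.170), whereas with upper-quartile scaling (0.34) and library size only (0.65) it did. Slc39a14 (chr14:70303469-70351425, minus strand) encodes ZIP14, which takes up zinc, manganese and iron and is needed for manganese uptake by the liver. It had 165, 225 and 215 CPM in control livers and 164, 256 and 218 CPM in gSpns1-cKO livers, and the groups overlapped. The log2 fold change was 0.08 ± 0.18 (SE; edgeR, adjusted p = 0.766), and its sign turned when control replicate 1 (-0.063) or gSpns1-cKO replicate 2 (-0.079) was left out. In control replicate 1 Slc39a14 was the lowest of the control libraries, as Mt1 was.

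Slc30a1 encodes ZnT1, the zinc exporter of the plasma membrane, and lies at chr1:191906767-191913247 on the plus strand. It had 57.6, 58.6 and 72.0 CPM in control livers and 42.6, 48.3 and 50.4 CPM in gSpns1-cKO livers. Every gSpns1-cKO value was below every control value. The means were 62.7 ± 8.06 and 47.1 ± 4.02 CPM (SD, n = 3), a 1.33-fold fall with a log2 fold change of -0.41 ± 0.12 (SE; edgeR, adjusted p = 0.0197). This call rested on the scaling and on 1 library. The raw counts were 1620, 1804 and 1823 in control and 1533, 1854 and 1980 in gSpns1-cKO libraries and overlapped, the log2 fold change was 0.03 with library size only, and the adjusted p was 0.0795 without control replicate 3. Of its 5244 exonic bases, 468 are shared with 1700034H15Rik on the opposite strand.

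Slc30a10 (chr1:185454848-185468762, plus strand) encodes ZnT10, which exports manganese from hepatocytes into bile. It had 30.6, 22.4 and 25.2 CPM in control livers and 26.5, 15.8 and 30.8 CPM in gSpns1-cKO livers, and the groups overlapped widely. The log2 fold change was -0.10 ± 0.24 (SE; edgeR, adjusted p = 0.777), and its sign depended on the scaling and on single libraries. Of its 5836 exonic bases, 533 are shared with Gm2061 on the opposite strand.

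**Figure D4:**
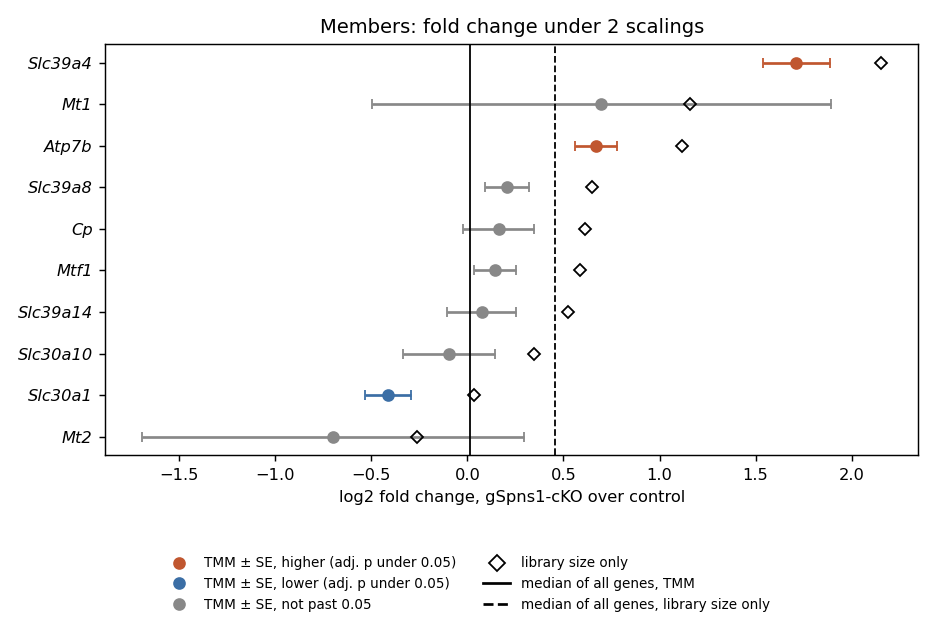
log2 fold change (gSpns1-cKO over control) of the 10 genes with TMM scaling (filled points, bars ± SE) and with library size only (open diamonds). The solid and dashed vertical lines are the medians of all genes tested, 0.01 and 0.46; Slc39a4 and Atp7b lie above the line of their scaling in both, and Slc30a1 lies below it.

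Since scaling shifts all genes of a library together, the ratio of a pair of genes within a library is free of it. The level of Slc39a4 relative to Slc30a1, both per length, was 0.644, 0.761 and 0.621 in the control livers. It was 4.05, 2.19 and 2.70 in the gSpns1-cKO livers. Per length, the importer transcript was therefore below the exporter transcript in every control liver and above it in every gSpns1-cKO liver. The mean ratios were 0.675 ± 0.0752 and 2.98 ± 0.958 (SD, n = 3). The lengths are those of all annotated exons and not of the transcripts present. Which gene is the higher thus depends on them, whereas the fold change of the ratio between the groups does not. Relative to Slc39a14, Slc39a4 had ratios of 0.452, 0.398 and 0.418 in control and 2.11, 0.834 and 1.25 in gSpns1-cKO livers. These pairs were chosen after their values were seen, and the ratios were not tested.

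Atp7b, the copper pump gene whose loss causes Wilson disease, was the only other member that rose with TMM scaling. It lies at chr8:21992785-22060305 on the minus strand. Atp7b was counted 760, 749 and 680 times in control livers and 1414, 1493 and 1818 times in the gSpns1-cKO livers. On the CPM scale these were 27.0, 24.3 and 26.9 in control and 39.3, 38.9 and 46.2 in gSpns1-cKO livers, and neither counts nor CPM overlapped. The means were 26.1 ± 1.52 and 41.5 ± 4.13 CPM (SD, n = 3), a 1.59-fold rise with a log2 fold change of 0.67 ± 0.11 (SE; edgeR, adjusted p = 0.00103). It passed in each of 14 other settings, with 0.58 to 0.71 when a library was left out.

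Cp, which encodes the copper-carrying ferroxidase ceruloplasmin of the plasma, lies at chr3:19957054-20009145 on the plus strand. It had 1032, 1448 and 1621 CPM in control livers and 1557, 1421 and 1615 CPM in gSpns1-cKO livers. The gSpns1-cKO values lay within the range of control replicates 2 and 3, apart from 1421 CPM just below it, and control replicate 1 was again the lowest library. The log2 fold change was 0.16 ± 0.18 (SE; edgeR, adjusted p = 0.505), and it was -0.017 without control replicate 1. Ceruloplasmin is itself an acute phase protein. Its transcript spread 1.57-fold between the control livers, and the part of the acute phase in this spread was not tested.

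When levels were compared per length, Mt1 was the highest of the 10 genes in both groups, with mean levels of 322 and 521 CPM per kilobase. The lengths are again those of all annotated exons, so the order of genes at near levels depends on them. Cp came next with 143 and 160 CPM per kilobase, and in control livers its range overlapped that of Mt1 because of control replicate 1. In control livers Slc39a14 (19.1), Slc30a1 (12.0), Slc39a4 (8.03), Slc30a10 (4.47), Atp7b (4.01), Slc39a8 (2.92) and Mtf1 (1.76 CPM per kilobase) followed. Of these neighbours only Slc30a10 and Atp7b overlapped. In gSpns1-cKO livers Slc39a4 stood at 26.3 CPM per kilobase, in the third place beside Slc39a14 at 20.2, with overlapping ranges, and Atp7b at 6.38 stood above Slc30a10 at 4.18 without overlap. Slc30a1 was at 8.98 and Slc39a8 at 3.38 CPM per kilobase there, the latter overlapping Slc30a10, and Mtf1 was at 1.95. Mt2 came last at 0.676 and 0.425 CPM per kilobase, with the limit on its counting given above.

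Of 39 further zinc and copper genes, 32 could be tested, and 7 rose and 10 fell in gSpns1-cKO livers. This share of 53.1% stands beside 41.8% of all genes tested, and the median log2 fold change was -0.21 beside 0.01. With library size only, 11 rose and 3 fell, beside 47.2% and 6.28% of all genes, with a median of 0.23 beside 0.46. With upper-quartile scaling 8 rose and 8 fell, where 4111 of all 15449 genes tested were higher and 2240 lower. Which direction held more genes of this list thus depended on the scaling, which shifted all genes likewise.

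Among the other ZIP importer genes, 2 of 10 tested rose and 3 fell, so that 50% were called beside 41.8% of all genes. Slc39a10 had 105, 76 and 99 counts in control and 235, 158 and 276 counts in gSpns1-cKO livers (log2 fold change 0.81 ± 0.26, edgeR adjusted p = 0.0288), and Slc39a6 had 96, 117 and 106 against 225, 163 and 346 counts (0.76 ± 0.26, edgeR adjusted p = 0.0366). The rise of Slc39a10 lost significance in 3 of 14 other settings and that of Slc39a6 in 6. Slc39a5, which encodes an importer of the basolateral membrane, fell from 2.22 ± 0.607 to 0.573 ± 0.0462 CPM (log2 fold change -1.95 ± 0.33, edgeR adjusted p = 0.00120) and passed in every other setting. It had 70, 47 and 67 counts in control and 22, 20 and 23 counts in gSpns1-cKO libraries, which did not overlap. Slc39a2 fell (-1.31 ± 0.38) from a level of 2.65 ± 0.182 CPM, and Slc39a1 fell by 0.53 ± 0.13 on the log2 scale from 76.4 ± 11.8 CPM, and neither passed with library size only. With Slc39a4 counted in, the importer genes moved in different directions. Of 6 ZnT exporter genes tested, only Slc30a3 passed, with 22, 44 and 21 counts in control and 4, 9 and 26 counts in gSpns1-cKO libraries, which overlapped (log2 fold change -1.58 ± 0.58, edgeR adjusted p = 0.0491), and its call was lost in 7 of 13 other settings. Slc30a7, which loads zinc into the secretory pathway, did not pass (0.18 ± 0.13, edgeR adjusted p = 0.274). The share of these exporter genes called was 16.7%, beside 41.8% of all genes.

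Of 16 copper genes tested, 5 rose (31.25%) and 6 fell (37.5%) with TMM, beside 21.3% and 20.5% of all genes. With library size only 5 rose and 2 fell, beside 47.2% and 6.28% of all genes. The genes of cytosolic copper delivery to superoxide dismutase were among those that fell. Sod1, which encodes the copper- and zinc-containing superoxide dismutase of the cytosol, had 37216, 37867 and 32042 counts in control and 18481, 21973 and 22375 counts in gSpns1-cKO livers. It fell from 1273 ± 47.4 to 552 ± 33.1 CPM (SD, n = 3), with a log2 fold change of -1.21 ± 0.14 (SE; edgeR, adjusted p = 0.000122). Ccs, the gene of the chaperone that hands copper to SOD1, fell from 249.9 ± 16.3 to 128 ± 12.3 CPM (-0.97 ± 0.12, edgeR adjusted p = 0.000223). Neither gene overlapped between groups in raw counts or in CPM, and both passed with library size only, at -0.76 and -0.53. Slc31a1, the gene of the copper importer CTR1, fell by 0.59 ± 0.12 on the log2 scale (edgeR, adjusted p = 0.00271), and its raw counts of 6093, 7459 and 6455 in control and 5642, 6061 and 6300 in gSpns1-cKO libraries overlapped. Cox19 (-0.67 ± 0.14) and Commd1 (-0.57 ± 0.12), genes of copper delivery to the mitochondria and of copper trafficking, fell with TMM, as Steap3 did (-0.55 ± 0.17), and none of these nor Slc31a1 passed with library size only. Other tested genes of mitochondrial copper delivery, Cox17 (0.09 ± 0.24), Cox11 (-0.14 ± 0.24) and Sco1 (-0.25 ± 0.15), did not pass with TMM.

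The largest rises among the copper genes were those of Heph, Atp7a and Steap2. Heph, which encodes the ferroxidase hephaestin, a relative of ceruloplasmin, had 30, 41 and 25 counts in control and 96, 106 and 98 counts in gSpns1-cKO libraries (log2 fold change 1.22 ± 0.26, edgeR adjusted p = 0.00381). Atp7a, which encodes the copper pump of most cells other than hepatocytes, had 39, 33 and 50 counts against 108, 154 and 121 counts (1.19 ± 0.28, edgeR adjusted p = 0.00706). Steap2, a metalloreductase gene, had 272, 367 and 306 counts against 872, 851 and 943 counts (1.06 ± 0.13, edgeR adjusted p = 0.000152). These groups did not overlap, and all 3 genes passed in each of 14 other settings, as did Sod3, the gene of the extracellular superoxide dismutase (0.50 ± 0.13). Slc31a2 rose by 0.44 ± 0.15 on the log2 scale and lost this in 5 of the 14. Relative to Slc31a1 per length, Atp7b had ratios of 0.0821, 0.0661 and 0.0693 in control and 0.165, 0.162 and 0.190 in gSpns1-cKO livers, free of the scaling. This pair was chosen after its values were seen and was not tested.

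**Figure D5:**
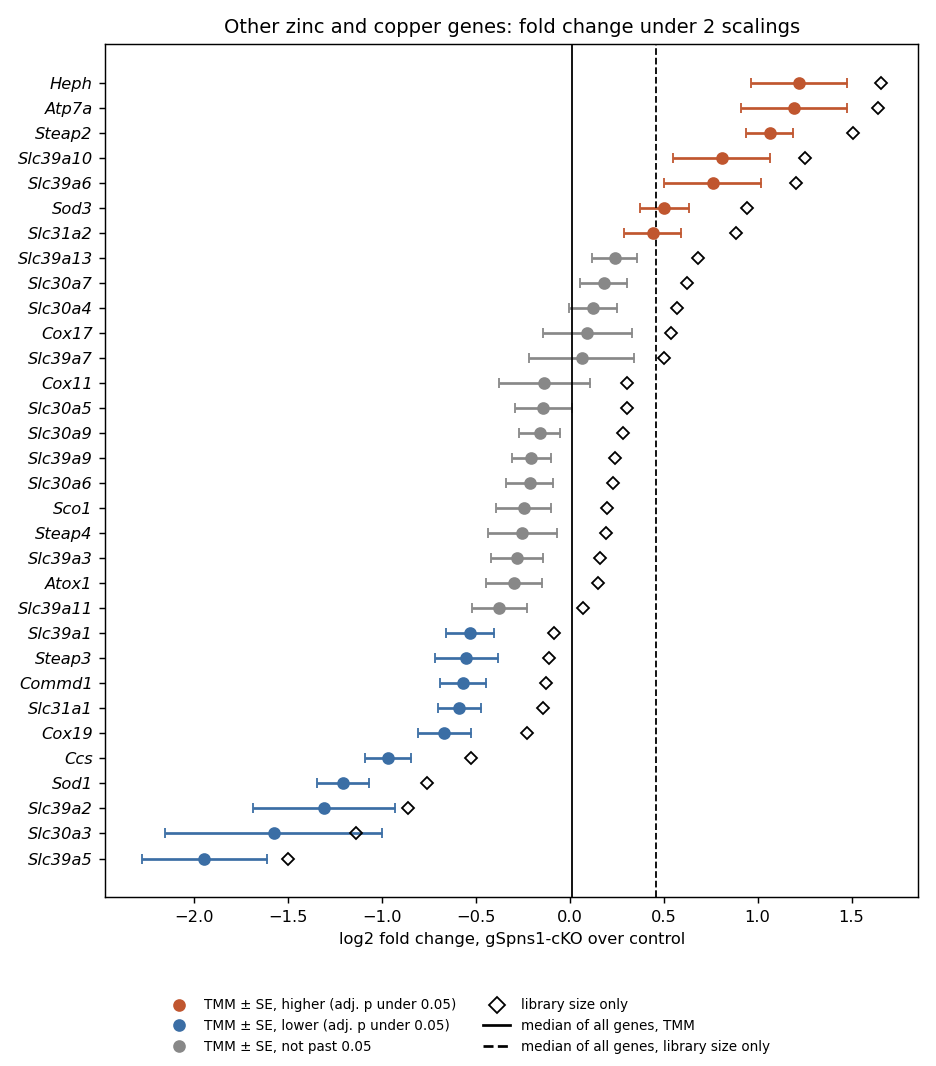
log2 fold change (gSpns1-cKO over control) of the 32 further zinc and copper genes tested, with TMM scaling (filled points, bars ± SE, coloured by the edgeR call) and with library size only (open diamonds). The solid and dashed lines are the medians of all genes, 0.01 and 0.46; Heph, Atp7a and Steap2 lie highest and Slc39a5 lowest.

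Markers of several other liver cell types were higher in gSpns1-cKO livers. Of all genes tested, 21.3% were called higher and 20.5% lower with TMM, and 47.2% and 6.28% with library size only. Macrophage markers rose in 10 of 10 genes, with a summed level of 189 to 307 CPM in control and 744 to 1112 CPM in gSpns1-cKO livers. Cholangiocyte markers rose in 6 of 7 (59.4 to 77.8 against 186 to 299.6 CPM), stellate cell markers in 6 of 8 (192 to 221 against 511 to 557 CPM) and endothelial markers in 6 of 7 (179 to 186 against 252 to 304 CPM). Of 9 hepatocyte markers in the table none rose and 5 fell, and their sum was 107017 to 121975 CPM in control and 62984 to 75330 CPM in gSpns1-cKO livers, whereas with library size only 1 rose and 2 fell. In such bulk samples, fewer cells of a type and less RNA per cell cannot be told apart. The parts of these markers in the changes of Slc39a4, Atp7b, Atp7a, Heph, Sod1 and the other genes were not tested. Of 6 neutrophil markers 2 could be tested and rose, of 7 lymphocyte markers 1 rose, and of 5 erythroid markers tested 2 rose and 1 fell. Of the pancreatic acinar markers, Prss2, Cpa1, Ctrb1 and Amy2a5 had 0 counts in every library.

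Among the genes whose levels followed Mt1 most closely over the 6 libraries, out of 8009 genes at 10 CPM or more on average, were Rabgap1 (Pearson r = 0.995 of log2 CPM), Twf1 (0.978), Fbxl18 (0.974) and the zinc transporter gene Slc30a7 (0.968). Each of these was lowest in control replicate 1, where Slc30a7 had 18.9 CPM against 24.1 to 26.5 CPM in the other 5 libraries. Their range was narrow beside that of Mt1. For Slc39a14 the closest were Wwc1 (0.980), Fbxo42 (0.979), Wwc2 (0.969), Epha1 (0.967) and Arfip2 (0.961). With 6 libraries and 8009 genes, values of this size are descriptive only, and the libraries share the group difference and the scaling.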

How the data were processed

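RNA-Seq of poly(A) RNA from 6 mouse livers was analysed, 3 gSpns1-cKO and 3 control. Per the submitters' processing notes, fastp, HISAT2 2.0.5, featureCounts 1.5.0-p3 and mm10 were used. Whether counting used strand and which annotation release was used are not given in the sources used here. The authors deposited whole-number counts per gene and library, without normalization, with FPKM values that were not tested, group means and their own comparison (fold changes and p-values), which was not used. Groups came from the sample titles.

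In R 4.3.3, edgeR 4.0.16 was run on the counts (filterByExpr, TMM, robust glmQLFit, glmQLFTest, Benjamini-Hochberg over 15449 genes, threshold 0.05). The standard error is the log2 fold change over the root of F. Alternatives were DESeq2 1.42.0, limma-voom (limma 3.58.1), other scalings (library size, upper quartile, RLE), other filters on low counts (1 or more in some library, or 10 or more in each), a threshold of 0.01, a replicate block and leaving out each library. The edgeR script was tested on simulated data.

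The 10 members and all lists were chosen with earlier results of these data known. Named are the members, Spns1, up to 8 zinc and copper genes in each direction, up to 3 of each other list by size of change, and the 5 genes most like Mt1 and Slc39a14, of which 1 is not reported here. Steap3, Slc39a1, the genes singled out in the text and those named as not passing were added after their values were seen. Libraries of a group differed by more than sampling noise (chi-square per gene 40.1 to 121).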

Additional observations from a re-analysis of the deposited data

How the results depend on the processing

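Slc39a4 and Atp7b passed the threshold in each of the 14 other settings, and Mt1 passed in none. The number of the 10 genes called was 6 with library size only (all higher) and 2 to 3 when each library was left out in turn, without control replicate 3 giving the lowest. Of the further zinc and copper genes, 10 were called at an adjusted p of 0.01 and 11 to 15 when a library was left out, the lowest without control replicate 2. Of all genes, 3890 were called at 0.01 and 4490 to 6429 when a library was left out. With library size only, 7289 of all genes were higher and 970 lower, and with upper-quartile scaling 4111 were higher and 2240 lower. For Spns1 the log2 fold change was -0.43 with library size only and -0.74 with upper-quartile scaling, and neither passed. Leaving out a library gave -1.18 to -0.68, and the call was lost without control replicate 2, gSpns1-cKO replicate 1 or gSpns1-cKO replicate 3. Signs turned for Slc30a1 with library size only (0.034), and for Slc30a10 with library size only (0.35) and upper-quartile scaling (0.030). With each library left out, Slc30a10 ranged from -0.30 to 0.14 (0.022 without control replicate 1), Slc39a14 from -0.079 to 0.23 (-0.063 without control replicate 1), Cp from -0.017 to 0.29 and Mt2 from -1.29 to 0.68, and Mt2 was 0.30 with limma-voom. The cause was not tested. The share of Mt1 and Mt2 together, almost all of it Mt1, was higher in gSpns1-cKO livers by 0.0419 percentage points. When a library was left out, the share was higher there by 0.0244 to 0.0567.

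The titles number the replicates but do not say that equal numbers are pairs. Correlations of the deviations from the group mean were 0.0371, 0.0331 and -0.0279 for same-numbered libraries. For libraries of different number they were -0.0654 to 0.0325. With 3 libraries in a group, such values cannot show whether the samples were paired. With the number as a block, 6100 genes were called, 3 of the 10 metal-handling genes and 16 of the further zinc and copper genes, where Slc31a2 lost its call. For Mt1 the block gave a log2 fold change of 1.52 (edgeR, adjusted p = 0.463). With 3 mice in a group, Mt1 had a standard error of 1.19 on the log2 scale, and Mt2 had at most 27 counts in any library.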
